A study of Mus musculus with 282 samples.

Results

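Single granulocyte-monocyte progenitors (GMPs) that answered TNF with a transient NfkB response were compared with each other, cell by cell. GMPs are progenitors in the bone marrow, from which neutrophils and other granulocytes arise, and monocytes too. The class holds the cells whose cytokine is TNF and whose response type is transient in the authors' deposited cell tables. It has 76 cells, of 282 single cells in the series, 238 cells in those tables and 178 TNF cells among them. The only plate of the 1-plate experiment carried 25 of them; of the 2-plate experiment, Plate1 carried 23 and Plate2 28. All cells, with or without TNF, came from bone marrow of male and female mice of 12 to 19 weeks, homozygous for GFP-p65 and heterozygous for H2BmCherry. They were kept in culture for 8 h under a confocal microscope and each was then lifted out with a micromanipulator, and its polyadenylated RNA was amplified by Smart-Seq2. The cells used for comparison were 56 oscillatory TNF cells and 47 non-responsive cells whose cytokine entry is blank, taken to mean unstimulated. The sources used here give neither the TNF dose nor the rule behind the response types, and the labels do not say which cells share an animal.

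TNF binds its receptors and activates a kinase that leads to the destruction of the inhibitors that hold NfkB in the cytoplasm. NfkB then enters the nucleus and switches on target genes, among them genes for its own inhibitors. In a transient response NfkB leaves the nucleus and stays out, and in an oscillatory one it returns repeatedly. GMPs are a mixed population, in which granule genes of the neutrophil line and genes of the monocyte line are known to be present at unequal levels from cell to cell. Dividing progenitors also differ by cell cycle phase. Genes are given here by their Ensembl identifiers, because no table at hand pairs these with symbols. Symbol lists of lineage markers and NfkB targets are hence not analysed here, and the label GMP could be checked only against the 3 marker identifiers given with the class.

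A class cell had 193116 to 3380416 reads on genes (median 1299498) and 4329 to 10922 genes with a read (median 9909). Median reads per cell were 837709 on the plate of the 1-plate experiment, 1856249 on Plate1 and 1369814 on Plate2. Plate2 stood apart: it held all 7 class cells with fewer than 8000 detected genes, called low-complexity cells below, and 5 of these were among its 8 G1 cells. Where those cells changed a call or moved a value most, the value without them stands beside it. Over the 3 plates the authors called 18 cells G1, 19 S and 39 G2M, and 0 cells had identical counts.

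Of the 3 markers, ENSMUSG00000009350 and ENSMUSG00000020125 were read in 76 of 76 cells, at levels that differed widely from cell to cell. Levels are in CPM, counts scaled to the same total of gene reads per cell. For ENSMUSG00000009350 the lowest, median and highest cell had 81.7, 1359 and 3325 CPM on the plate of the 1-plate experiment. The same values were 260, 1388 and 7746 CPM on Plate1, and 68.2, 694 and 6054 CPM on Plate2. The 3 ranges overlapped between 260 and 3325 CPM, with cells beyond both ends, and the highest cell of the class had 114 times the CPM of the lowest.

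For ENSMUSG00000020125 the lowest, median and highest cell had 59.1, 790 and 3372 CPM on the plate of the 1-plate experiment. They had 78.9, 1062 and 9800 CPM on Plate1, and 35.9, 483 and 3679 CPM on Plate2. The highest cell exceeded the lowest by 273 times. Its coefficient of variation (CV, the SD over cells divided by the mean) was 0.796, 1.28 and 1.07 on the 3 plates in that order, against 0.727, 1.02 and 1.10 for ENSMUSG00000009350. Both had a wider spread than technical spike-in RNA: among spike-ins with a mean of 50 or more reads, the highest CV was 0.236 (4 spike-ins), 0.659 (21) and 0.654 (21). Among genes with mean reads in the range of those spike-ins, 170 of 177 (96%), 1949 of 6037 (32.3%) and 3316 of 4692 (70.7%) exceeded it too. On the plate of the 1-plate experiment those spike-ins had a mean of 201 to 245 reads, against 1093 for ENSMUSG00000009350 and 664 for ENSMUSG00000020125.

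The third marker, ENSMUSG00000056071, was sparse. It had a read in 2 of 25 cells on the plate of the 1-plate experiment, in 4 of 23 on Plate1 and in 12 of 28 on Plate2, and at 10 CPM or more in 2, 2 and 8 of them. The highest cell had 285, 1697 and 249 CPM on the 3 plates, and the next cell 20.5, 51.3 and 92.1 CPM. A single cell thus held 93.3%, 96.6% and 43.8% of the summed CPM of this gene. It was read in 0 of 20, 1 of 22 and 3 of 14 oscillatory TNF cells, in the same plate order, and for blank non-responsive cells the shares were 3 of 13, 7 of 18 and 5 of 16. Differences between classes in these shares were not tested, since cells are not replicates.

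**Figure D1:**
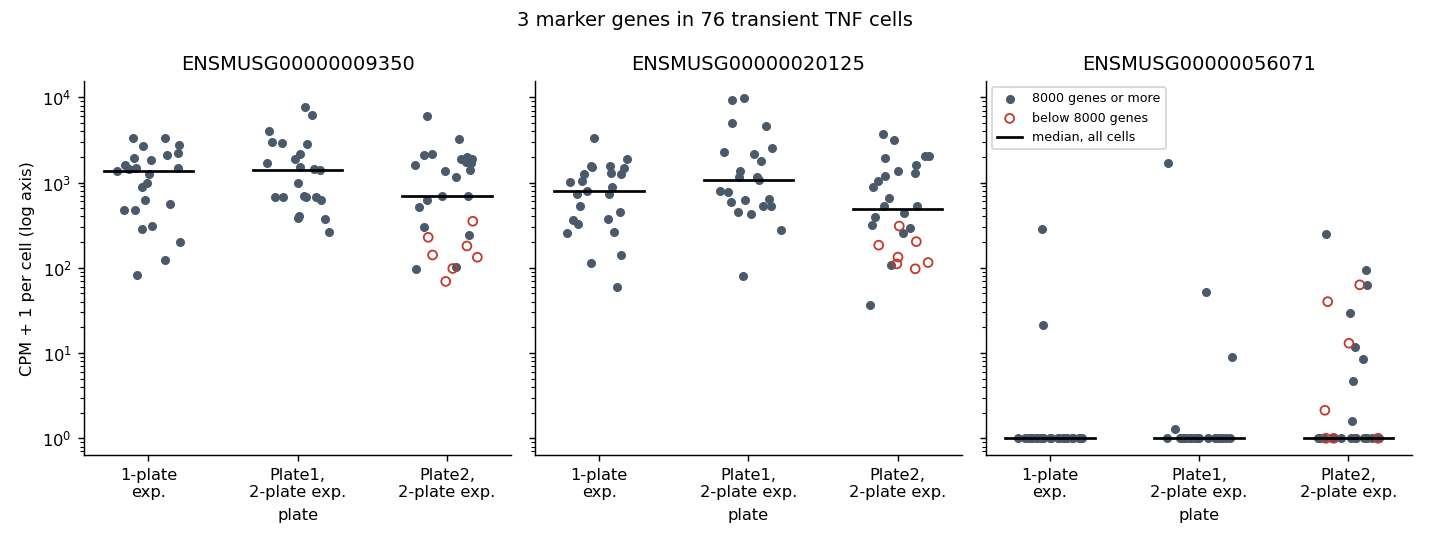
CPM + 1 (log axis) of the 3 markers in each of the 76 transient TNF cells, by plate. Bars are medians over all cells, and open circles are the 7 cells with fewer than 8000 detected genes, which lie low for ENSMUSG00000009350 and ENSMUSG00000020125 on Plate2. Most cells have no read of ENSMUSG00000056071.

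The abundant pair of markers rose and fell together from cell to cell. The Spearman correlation between ENSMUSG00000009350 and ENSMUSG00000020125 was 0.47 over 25 cells of the 1-plate experiment, 0.71 over 23 cells of Plate1 and 0.79 over 28 cells of Plate2, and 0.58 over the 21 cells of Plate2 without the low-complexity ones. With a bound of 500 CPM, chosen after the values were seen, both were below it in 5, 2 and 10 cells of the 3 plates, and 7 of the 10 on Plate2 were low-complexity cells. Neither followed ENSMUSG00000056071: its correlation with ENSMUSG00000009350 was -0.20, 0.22 and -0.23, and with ENSMUSG00000020125 0.02, 0.22 and 0.02. All correlations given here are Spearman rank correlations, and they are descriptions over cells that share a plate, and depth and complexity differ among the points.

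Complexity moved with both abundant markers on Plate2 more than elsewhere. There, the 7 low-complexity cells had a median of 140 CPM of ENSMUSG00000009350 against 1400 CPM in the other 21, and 132 against 892 CPM of ENSMUSG00000020125. The rank correlation between detected genes and ENSMUSG00000009350 was 0.47 on the plate of the 1-plate experiment, 0.15 on Plate1 and 0.80 on Plate2 (0.63 over its 21 other cells). For ENSMUSG00000020125 it was 0.09, -0.29 and 0.69 (0.46). The part of complexity in the marker levels was not tested.

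The gene most like ENSMUSG00000009350, by mean correlation over the 3 plates among 7498 genes, was ENSMUSG00000024681, with correlations of 0.78, 0.77 and 0.82. Its lowest, median and highest cells had 2.05, 285 and 1418 CPM, then 13.6, 145 and 1881 CPM, then 0, 148 and 947 CPM in that plate order. Its levels spread as widely over each plate as those of the marker. The gene most like ENSMUSG00000020125 was ENSMUSG00000057729, with correlations of 0.79, 0.89 and 0.85. It ranged from 62.6 to 1094 CPM around a median of 249, from 62.8 to 3276 around 351, and from 2.6 to 1698 around 343. Both kept the first rank without the low-complexity cells, with a mean correlation of 0.76 and 0.81 in place of 0.79 and 0.84.

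**Figure D2:**
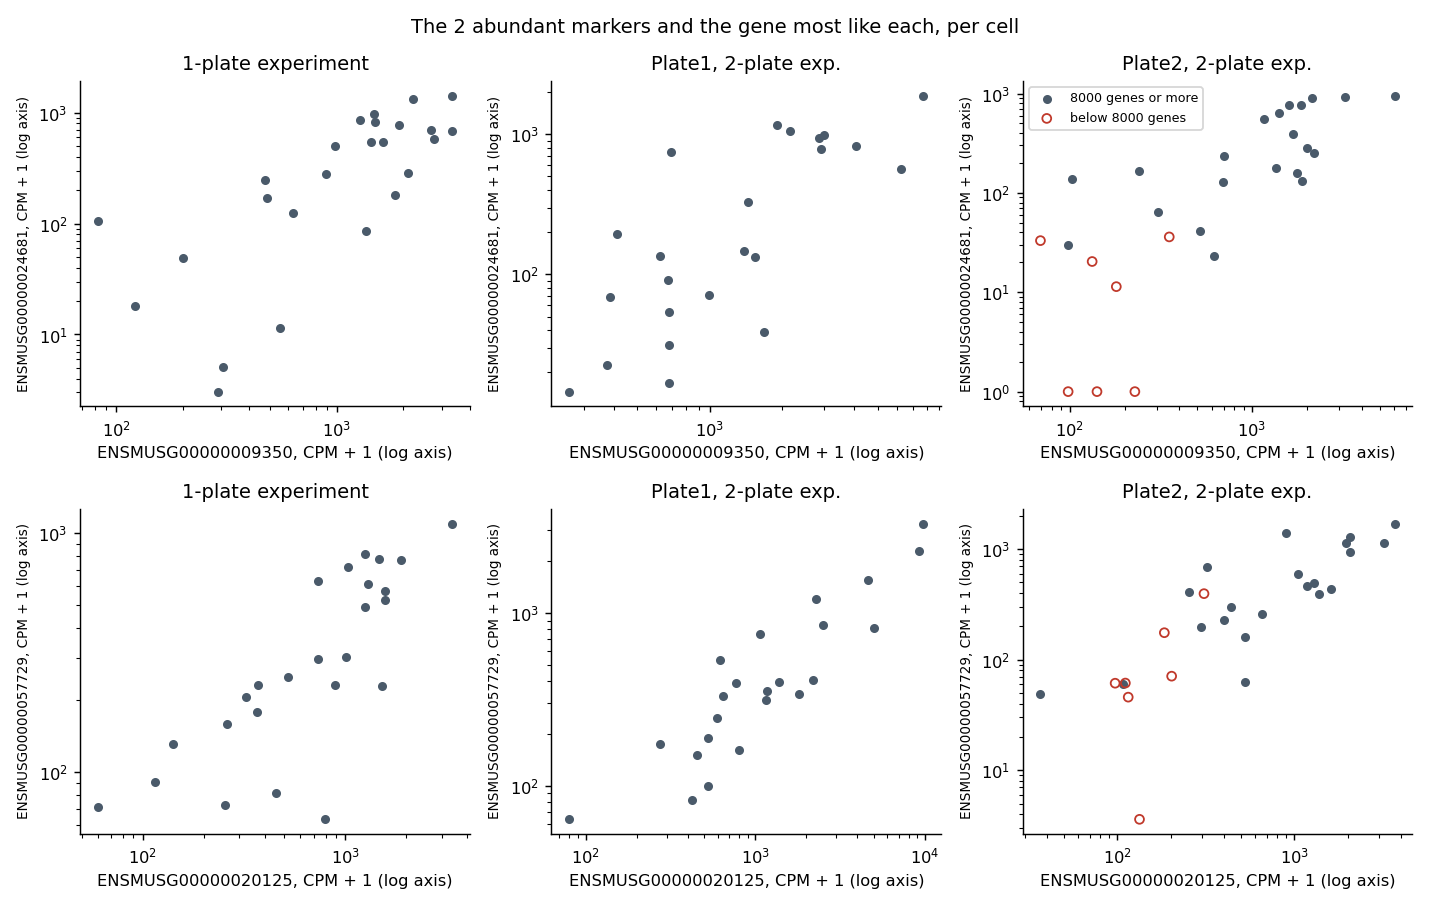
Each point is a cell; both axes are CPM + 1 on log scales. The upper row sets ENSMUSG00000024681 against ENSMUSG00000009350 and the lower row ENSMUSG00000057729 against ENSMUSG00000020125, one column per plate; open circles are low-complexity cells. The points rise together in each panel, with correlations of from 0.77 to 0.89.

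To find which genes varied most among the cells, the excess spread of a gene was taken as its log2 squared CV minus the running median of genes with like mean CPM, on each plate. Of 7498 genes with a mean of at least 10 CPM and reads in at least 3 cells on every plate, 271 lay in the upper 10% on all 3 plates (3.61%). The median excess of these variable genes was 2.14 on the log2 scale, with a range from 1.28 to 4.69. Plates shared about as many: 390, 354 and 370 of the upper 750 genes were common to 2 plates (52%, 47.2% and 49.3%). By the same procedure 230 of 7276 genes (3.16%) were variable in oscillatory TNF cells and 188 of 7647 (2.46%) in non-responsive blank cells. Among genes measured in both classes, the transient class shared 97 variable genes with the oscillatory one (41.1% of its own 236 and 56.4% of the other 172). With the blank class it shared 111 (48.9% of its own 227 and 66.1% of the other 168). Those classes had fewer cells per plate.

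Both abundant markers were among the 271, with a mean excess of 2.36 for ENSMUSG00000009350 (1.94, 3.33 and 1.80 by plate) and 2.69 for ENSMUSG00000020125 (2.29, 4.01 and 1.77). ENSMUSG00000024681 had a mean excess of 2.45 and ENSMUSG00000057729 of 2.32. Most variable genes were present in most cells: a median of 92%, 91.3% and 82.1% of cells had a read. In the median variable gene the highest cell held 19.8%, 20.6% and 22.2% of the summed CPM, against 9.68%, 10.7% and 11% over all genes tested. A single cell held 50% or more in 15, 14 and 16 of the 271.

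**Figure D3:**
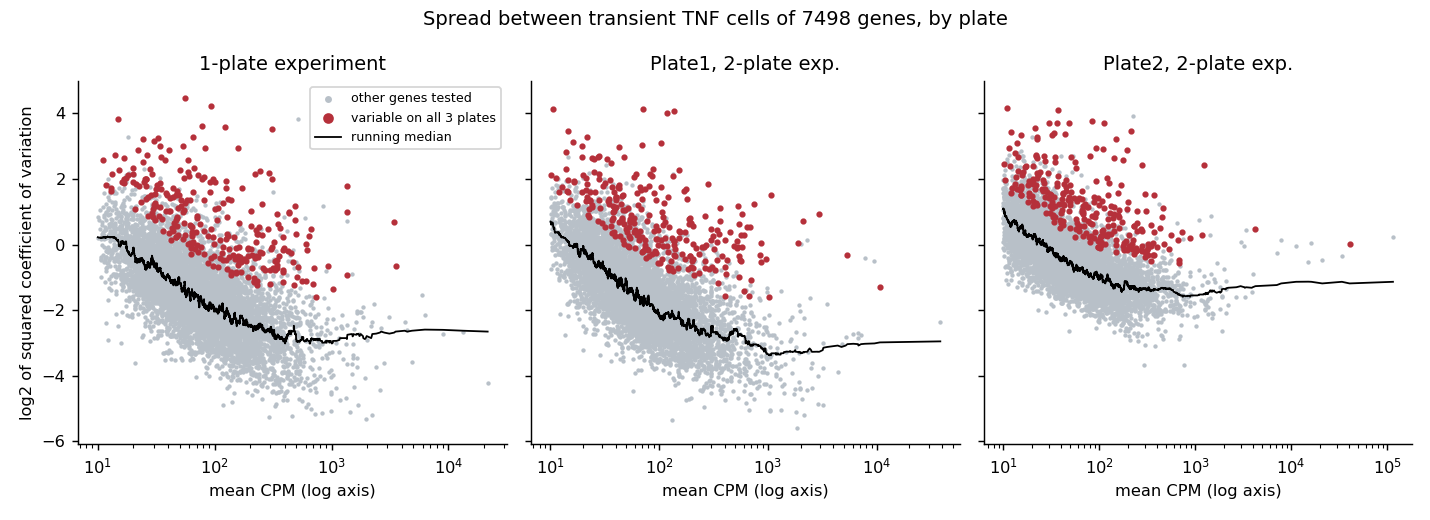
Log2 of the squared CV over transient TNF cells against mean CPM (log axis) for 7498 genes, one panel per plate. Red points are the 271 genes in the upper 10% of excess spread on all 3 plates, and the line is the running median, which lies higher on Plate2 than on the other plates over most of the range.

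The highest mean excess was that of ENSMUSG00000056054 (4.69). It had reads in 8 of 25, 6 of 23 and 19 of 28 cells, and its highest cell had 1323, 2308 and 252 CPM on the 3 plates. The second highest had 30.1, 252 and 202 CPM, so that 1 cell held 94.8% and 83.9% of the summed CPM on the first plates and 24.7% on Plate2. On each plate the cell highest in ENSMUSG00000056054 was also the cell highest in the sparse marker ENSMUSG00000056071. Of the 18 cells with a read of that marker 16 had ENSMUSG00000056054, and of the other 58 cells 17 did. Over all cells, medians of the abundant markers with and without ENSMUSG00000056071 differed in direction between plates. Median ENSMUSG00000009350 was 643 CPM with it and 1433 CPM without on the plate of the 1-plate experiment, 1571 and 1388 CPM on Plate1, and 520 and 1023 CPM on Plate2. Median ENSMUSG00000020125 was 858 and 790 CPM, 2824 and 803 CPM, and 461 and 483 CPM. On Plate2 both sides include low-complexity cells, which were low in ENSMUSG00000020125. Those with ENSMUSG00000056071 had 183, 110, 96.3 and 308 CPM of it, and those without had 132, 202 and 114 CPM. The direction on Plate2 without low-complexity cells was not tested.

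The next was ENSMUSG00000032323 (mean excess 4.66), read in 14, 14 and 13 cells of the 3 plates. Its highest cells had 5150, 366 and 2028 CPM and the next ones 1179, 140 and 898 CPM. These high cells were few but did not stand alone: median CPM was 19.4, 12 and 0, and 14, 12 and 8 cells had 10 CPM or more. In its highest cells on the 3 plates, 9985, 10170 and 9340 genes were detected, so they were no low-complexity cells.

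The steadiest genes among 1505 with at least 100 CPM on every plate were ENSMUSG00000062006 and ENSMUSG00000067274, with a mean excess of -1.69 and -1.64. ENSMUSG00000062006 ranged from 181 to 408 CPM (median 299) on the plate of the 1-plate experiment, from 320 to 668 (479) on Plate1 and from 58.6 to 583 (256) on Plate2. Its CV was 0.161, 0.213 and 0.508. ENSMUSG00000067274 had a CV of 0.158, 0.182 and 0.487. These CVs were below that of the median spike-in on the plate of the 1-plate experiment (0.183) and on Plate1 (0.351), and above it on Plate2 (0.253). The spike-ins were scaled to their own total per cell and not matched to these genes in mean reads. The values hence do not compare the genes with technical spread at the same depth.

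Genes that stood high in a single cell were counted on each plate. Among genes with a mean of 10 CPM or more, 49 of 8553 (0.573%), 48 of 8294 (0.579%) and 73 of 7870 (0.928%) had 50% or more of their summed CPM in 1 cell. They were spread unevenly over the cells: 12 of 25, 9 of 23 and 14 of 28 cells led no gene. The most that 1 cell led was 14, 9 and 13 (28.6%, 18.8% and 17.8% of the genes so led). Over the plates 155 genes were led by 1 cell somewhere, 14 on at least 2 plates and 1, ENSMUSG00000040809, on all 3. Without the low-complexity cells 81 of 8084 genes (1%) were so led on Plate2.

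ENSMUSG00000040809 was read in 4 of 25, 3 of 23 and 9 of 28 cells. Its highest cell had 277, 1433 and 205 CPM on the 3 plates, and the next 72.9, 143 and 43.2 CPM. Of these 16 cells, 15 also had ENSMUSG00000056054 and 10 had ENSMUSG00000056071. On Plate1 all 3 genes peaked in the same G2M cell, with 1433, 2308 and 1697 CPM, 10322 detected genes, 693 CPM of ENSMUSG00000009350 and 1062 CPM of ENSMUSG00000020125. Neither abundant marker was thus at an extreme in that cell. Whether it is 1 cell or a doublet was not tested.

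Rare states were also sought among genes at 10 CPM or more in at most 7 of the 76 cells (10%) and in cells of at least 2 plates. Of 14203 genes at 10 CPM or more in some cell, 1716 met both bounds. The 2 with the highest mean over the class were ENSMUSG00000040152 (17.9 CPM) and ENSMUSG00000026390 (13.6 CPM). ENSMUSG00000040152 reached 10 CPM in 5 cells, with highest values of 1164 CPM on the plate of the 1-plate experiment, 94.8 CPM on Plate1 and 16 CPM on Plate2. On the first of these plates and on Plate1 its highest cell was the one that was highest in ENSMUSG00000056071 and ENSMUSG00000056054, an S and a G2M cell. On Plate2 that cell had 3.1 CPM.

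ENSMUSG00000026390 reached 10 CPM in 3 cells: a cell with 970 CPM and a low-complexity cell with 33.8 CPM (5176 detected genes) on Plate2, and 1 with 25.5 CPM on Plate1 (8659 detected genes). It had no read in the 25 cells of the 1-plate experiment. The cell with 970 CPM had 8921 detected genes and 96.5 CPM of ENSMUSG00000009350, the lowest level among the 21 richer cells of Plate2. No cell carried both rare genes at 10 CPM or more (0 cells).

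Broad axes of variation were described by principal components of log2(CPM + 1) over the 7498 genes, with each plate's mean removed. The first component took 27.3% of the variance and moved with the number of detected genes (correlation 0.51, 0.60 and 0.90 on the 3 plates) and with ENSMUSG00000009350 (0.62, 0.49 and 0.80). Its correlation with ENSMUSG00000020125 was 0.54, 0.02 and 0.77. Without the 7 low-complexity cells the first component took 11% and moved most with ENSMUSG00000009350 (correlation 0.76, 0.73 and 0.78), beside detected genes (0.47, 0.45 and 0.66). Over all cells the second component (5.8%) had correlations of 0.72, 0.73 and 0.15 with that marker. The third (3.91%) had correlations of 0.76, 0.69 and 0.25 with the authors' G2M score. The markers are among the genes that the components were built from. Component signs are arbitrary, and were set to be positive over all cells with detected genes, ENSMUSG00000009350 and the G2M score, in that order.

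**Figure D4:**
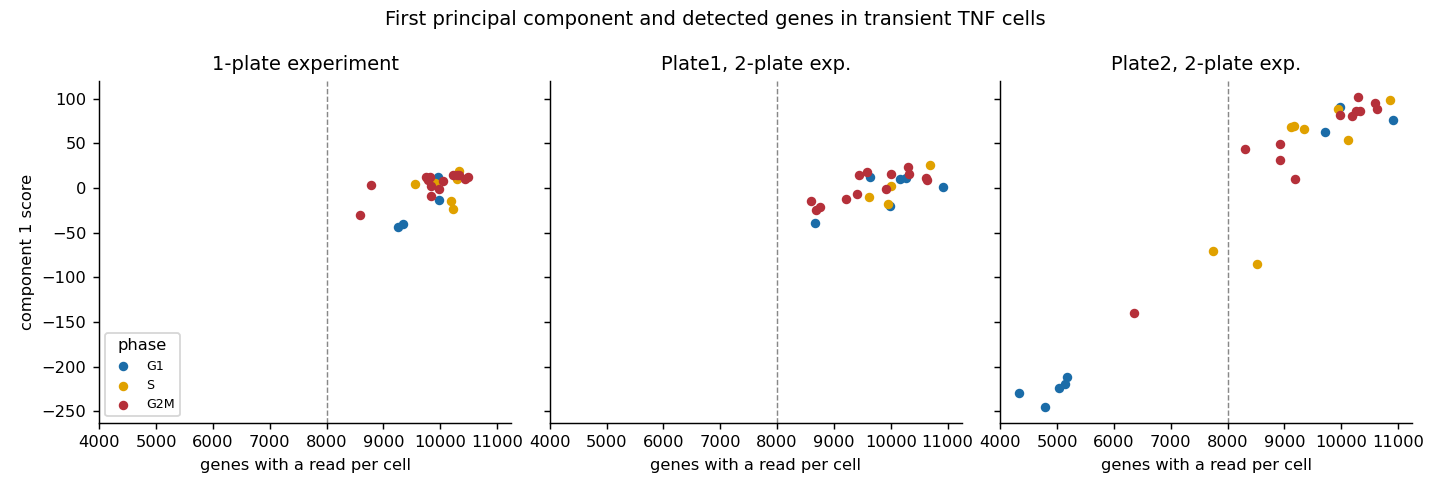
Score on the first principal component against the number of genes with a read in each transient TNF cell, one panel per plate, with colours for the authors' cell cycle phase. The dashed line marks 8000 genes; 7 cells lie left of it, all on Plate2, with 5 of them in G1 at the lowest scores.

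Among the 36585 pairs of variable genes, 654 (1.79%) had a correlation of 0.5 or more on every plate, against 0.158% of 28106253 pairs of all genes tested. A correlation of -0.5 or less on every plate was found in 9 of the variable pairs and in 284 of all pairs. Without the low-complexity cells 633 variable pairs went together and 168 went opposite ways, against 28174 (0.100%) and 4193 of all pairs. Opposed pairs thus rose in number over all genes tested too. The variable genes opposed to ENSMUSG00000009350 were 10, against 0 with the low-complexity cells. Linked over all cells in chains of pairs at 0.5 or more, 163 variable genes formed a first group that held both abundant markers. Only 6 variable genes were paired directly with ENSMUSG00000009350 and 4 with ENSMUSG00000020125. The first group also held 5 genes of scran's list of mouse cell cycle gene pairs. A second group had 10 genes, 8 of them on that list. Its mean log2(CPM + 1) per cell followed the authors' scores, with correlations of -0.86, -0.84 and -0.87 with the G1 score and 0.88, 0.89 and 0.62 with the G2M score. The scores were presumably made from expression, so cycle genes may be part of how they were made. The same 10 genes were linked without the low-complexity cells. Genes of the cycle list were no larger a share of the variable genes (16 of 271, 5.9%) than of those tested (541 of 7498, 7.22%).

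Cell cycle phase was then tested within the class. Reads were summed per plate and phase with at least 5 cells, which gave 7 sums; G1 and G2M could be set against each other within Plate1 and Plate2, both of 1 experiment. Of 12780 genes, 51 (0.399%) were higher and 3 (0.0235%) lower in G2M by a two-sided quasi-likelihood test of edgeR (Benjamini-Hochberg adjusted p under 0.05), and 1161 had an unadjusted p under 0.05. Of 618 tested genes on the cycle list 36 were higher and 0 lower, with a median log2 fold change of 0.15 against 0.02 over all genes. The phases are the authors' calls, made presumably from expression, so cycle genes may be part of how the cells were sorted into phases. The test rests on few sums: without Plate1 it called 11 genes higher and 12 lower, and DESeq2 called 263 and 97.

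Outside the cycle list, ENSMUSG00000061615 was higher in G2M. Its sums were 2.25 CPM in G1 and 36.5 in G2M on Plate1, and 6.25 and 74.8 CPM on Plate2, a log2 fold change of 3.63 ± 0.39 (SE, edgeR adjusted p = 0.019). The difference was borne by many cells: the 6 G1 cells of Plate1 had 0 to 5.1 CPM, and 11 of its 13 G2M cells had 10 CPM or more. On Plate2 the groups overlapped, with 0 to 31 CPM in G1 and 0 to 350 in G2M. In the 1-plate experiment, whose 4 G1 cells did not enter the fit, G1 cells had a median of 1.49 CPM and a highest value of 14.9 CPM, and the 14 G2M cells a median of 20.7 CPM. S cells were also high, with medians of 20.8, 41.2 and 103 CPM on the 3 plates.

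ENSMUSG00000040809 had the largest change outside the list, a log2 fold change of 4.63 ± 0.54 (SE, adjusted p = 0.026 in edgeR), from 8.58 to 149 CPM on Plate1 and from 0.305 to 27.1 CPM on Plate2. In G2M, however, only 2 of 13 cells of Plate1 and 6 of 12 of Plate2 had a read, and 1 cell held 94% and 82.6% of the reads. This is the gene that 1 cell led on every plate, and most G2M reads of Plate1 and of Plate2 lay in 1 cell each. The second highest G2M cell had 143 CPM on Plate1 and 38.3 CPM on Plate2, and the highest G1 cell 55 and 8.02 CPM.

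Of the 3 genes lower in G2M, ENSMUSG00000052544 had the largest change, -2.69 ± 0.31 (SE, edgeR adjusted p = 0.026), from 16 to 1.82 CPM on Plate1 and from 9.44 to 2.51 CPM on Plate2. A single G1 cell held 62.4% and 93.5% of the G1 reads. Medians per cell did not all follow the sums: G1 and G2M cells had 6.21 and 0 CPM on Plate1, 0 and 0.289 CPM on Plate2, and 3.74 and 10.8 CPM in the 1-plate experiment. In the 1-plate experiment its S sum had 407 CPM and its highest cell 2196 CPM. ENSMUSG00000019820 had a log2 fold change of -1.82 ± 0.26 (SE, adjusted p = 0.043 in edgeR), from 134 to 41.8 CPM on Plate1 and from 167 to 66.7 CPM on Plate2. It was read in all G1 and G2M cells of those plates, where the groups overlapped, and in the 1-plate experiment its median was 176 CPM in 4 G1 cells and 43.3 CPM in 14 G2M cells. On Plate2 its high G1 level lay in the low-complexity cells: 5 such G1 cells had a median of 275 CPM, while the 3 richer G1 cells had 42.7 CPM and the 11 richer G2M cells 63.7 CPM. Without low-complexity cells G1 rested on Plate1 alone, and the log2 fold change of ENSMUSG00000019820 was -1.65. With at least 3 cells per sum besides, the gene did not pass (-1.03, edgeR adjusted p = 0.52). Without Plate1 all 4 genes kept their direction and none passed: log2 fold changes were 3.32 for ENSMUSG00000061615, 5.89 for ENSMUSG00000040809, -2.28 for ENSMUSG00000052544 and -1.93 for ENSMUSG00000019820 (edgeR adjusted p = 0.10, 0.20, 0.12 and 0.18). Without the 1-plate experiment, in a fit with 1 residual degree of freedom, the call of ENSMUSG00000052544 was lost (adjusted p = 0.32 in edgeR) while the others passed. With at least 3 cells per sum none of the 4 passed without that experiment (edgeR adjusted p = 0.052, 0.75, 0.46 and 0.16 in the order above).

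**Figure D5:**
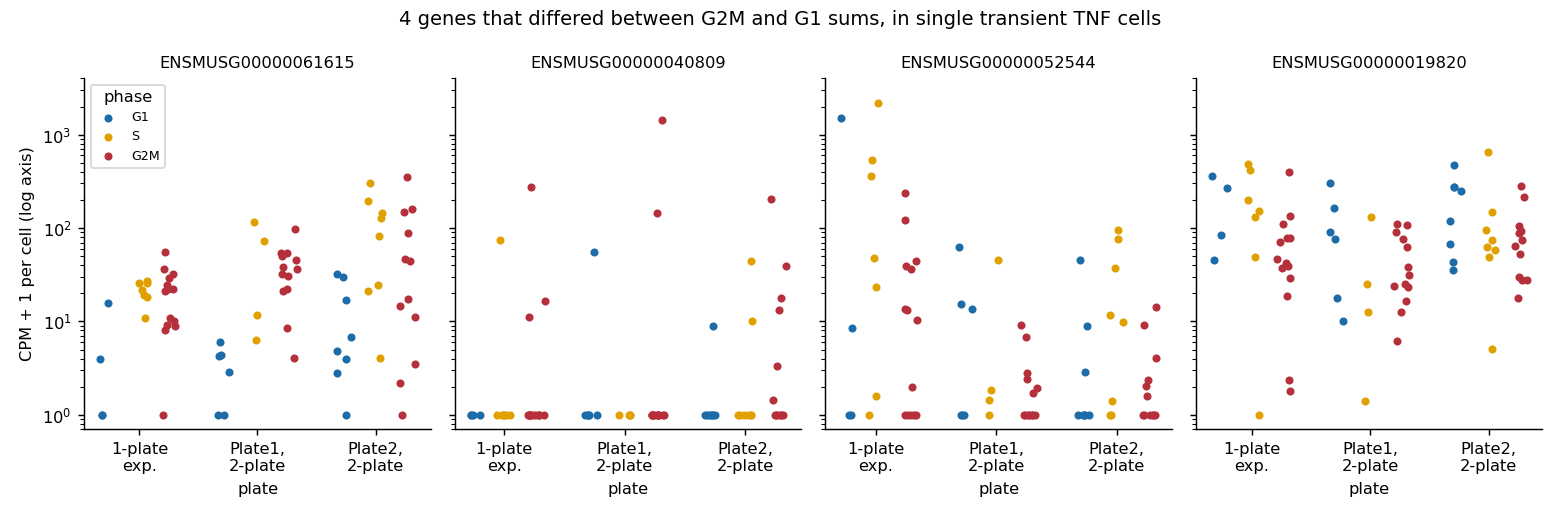
CPM + 1 (log axis) of the 4 genes in every transient TNF cell, by plate and by the authors' phase. ENSMUSG00000061615 is low in most G1 cells on each plate, and ENSMUSG00000040809 is read in few cells, with 1 high cell per plate.

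The markers did not pass this test. The log2 fold change in G2M was -0.30 for ENSMUSG00000009350, -0.28 for ENSMUSG00000020125 and 0.23 for ENSMUSG00000056071 (edgeR adjusted p = 0.83, 0.77 and 0.99). On Plate2 the median of ENSMUSG00000009350 was 160 CPM in the 8 G1 cells, 5 of them low-complexity, against 934 in S and 933 in G2M. On Plate1 it was 1787, 913 and 992 CPM in the same order. The medians over all cells thus ran in opposite directions on these plates. The richer G1 cells of Plate2, however, had 1596, 1752 and 1884 CPM, above the G2M median of that plate. Without low-complexity cells the G1 cells of Plate2 fell below 5, so that G1 rested on Plate1 alone. The log2 fold changes of the 3 markers were then -0.72, -0.63 and 7.12. A single cell held 96.6% of the summed CPM of ENSMUSG00000056071 on Plate1. With at least 3 cells per sum besides, the changes were -0.24, -0.18 and 2.77 (edgeR adjusted p = 0.84, 0.93 and 0.91).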

How the data were processed

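Per the labels, cells were lifted singly with a micromanipulator and prepared by Smart-Seq2 and Nextera. The deposited matrices give read counts (whole numbers) for each Ensembl mouse gene identifier; featureCounts, Subread 1.5.0 and SAMtools are named in the submitters' processing notes. The sources used here give no build, annotation or strand setting, so overlapping, antisense and near-identical genes were not told apart. Reads carry no molecular identifiers and are not independent molecules. The deposited cell tables also hold the authors' phase scores, each a fraction from 0 to 1, and phase calls, whose method is not given there.

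Columns and table lines were tied to samples by well and plate; 357 columns without a sample were left aside. Library sizes and tests leave out the 92 spike-ins. None of the 55450 identifiers (0) matched a symbol, so symbol lists, predicted genes and sequences were not analysed here. Members, markers, lists and thresholds were chosen with earlier results of these data known. Named genes are at most 2 identifiers per rule: the variable genes with the highest mean excess and reads in at least 20% of cells per plate, rare genes of highest mean CPM, the steadiest genes at 100 CPM or more, called phase genes outside the cycle list with the largest changes in each direction, and the gene most like a marker by mean Spearman correlation. The cycle list (667 identifiers, from scran 1.30.0), the shares led by 1 cell, components and pairs were added after the data were seen.

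Samples are single cells, which are no replicates, and spread between cells carries no test. Phases were tested on 7 sums of 5806047 to 22567894 reads with edgeR 4.0.16 in R 4.3.3 (default low-count filter, TMM factors, plate as a term, 2 residual and 5.49 prior degrees of freedom, Benjamini-Hochberg at 0.05). Standard errors are the absolute log2 fold change over the square root of F. The labels do not say that plates hold separate animals, so the spread may be technical. In 5 simulated tables of 12780 genes on these sums, the test found 52% of changes of 4-fold and 62.6% of those of 8-fold, with 0 of them reversed, and 9.19% of its calls were false, above the nominal 5%. In simulated cells for 7498 genes, 89.4% of genes with 4 times and 100% with 8 times the squared CV of the trend were called variable. All other genes were simulated on the trend and independently of each other, unlike real genes, so these shares need not hold for the real cells. Alternatives were another spread measure, filters, scaling, thinning, DESeq2 1.42.0, other sums and leaving out plates.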

Additional observations from a re-analysis of the deposited data

How the results depend on the processing

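Both abundant markers and the 2 variable genes named kept an excess above 0, and the 2 steadiest genes one below 0 (70 recomputed values). The variable and steadiest genes were picked by their excess in these same cells, so their sign was largely set in advance. With the SD of log2(CPM + 1), which is on another scale, 6 of the 70 values moved by at least the SD over plates. ENSMUSG00000020125 was then no longer among the variable genes. The 271 variable genes became 131 with the upper 5%, 141 at a mean of 50 CPM, 168 with TMM factors and 121 with the SD of log2(CPM + 1), of which 131, 133, 157 and 72 were among the 271. Leaving out a plate gave 370 to 421 variable genes, since fewer plates had to agree. The wider trend window, no CPM filter, thinning to 400000 reads (69 cells, with 7 too shallow), cells with 8000 genes or more, and leaving out each gene's highest cell gave 265 to 292, of which 203 to 260 were among the 271.

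The counts of genes higher and lower in G2M, 51 and 3, became 263 and 97 with DESeq2, 136 and 25 without the low-count filter, 78 and 12 with genes at 10 CPM in 50% of the sums, and 11 and 0 without the plate term, and were 49 and 4 with relative log expression factors. They were 64 and 5 with 3 or more cells per sum, 58 and 10 summed per experiment, and 30 and 4 in cells with 8000 genes or more; the 54 called genes kept their call in 42, 43 and 23 cases. Without one plate, with 5 or 3 cells per sum, counts ran from 7 to 60 higher and from 0 to 12 lower; without Plate2 at 5 cells the model had no residual degrees of freedom and was not fitted. The fall of ENSMUSG00000019820 did not pass in 9 of 14 recomputed fits, nor did the rise of ENSMUSG00000040809 in 8 of 13, that of ENSMUSG00000061615 in 5 of 14 and the fall of ENSMUSG00000052544 in 5 of 14; none of these 4 reversed. Log2 fold changes of the markers reversed without Plate1, to 0.10 and 0.13 for ENSMUSG00000009350, 0.07 and 0.21 for ENSMUSG00000020125, and -2.03 and -0.75 for ENSMUSG00000056071 with 5 and 3 cells per sum. Over all fits without one plate they ran from -0.45 to 0.13, from -0.41 to 0.21 and from -2.03 to 6.38 for the 3 markers in that order. In cells with 8000 genes or more they were -0.72, -0.63 and 7.12, with G1 from Plate1 alone. With at least 3 cells per sum besides, they were -0.24, -0.18 and 2.77. Without the low-complexity cells, opposed pairs were 168 in place of 9 among variable genes and 4193 in place of 284 among all genes tested. The first component then took 10.95%. Genes led by 1 cell at 75% in place of 50% were 16, 10 and 30 on the 3 plates. Why these values moved was not tested. The plate is the replicate block of the phase fit; replicate numbers in the labels only name wells. Planned results for lineage states and list levels needed symbols and were not run.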

Other observations

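The variable gene ENSMUSG00000032323 and the phase gene ENSMUSG00000052544 are a pair chosen after its values were seen. Both had a read in 12 of 25 cells on the plate of the 1-plate experiment (14 with the first, 17 with the second), in 7 of 23 on Plate1 (14 and 12) and in 9 of 28 on Plate2 (13 and 15). The G1 cell with 5150 CPM of ENSMUSG00000032323 had 1519 CPM of ENSMUSG00000052544, the second highest value on that plate. On Plate1 the cell highest in the first, with 366 CPM, had 14.5 CPM of the second. On Plate2 the S cell with 2028 CPM of the first had 93.4 CPM of the second, the highest there. The Spearman correlation was 0.67, 0.27 and 0.42 on the 3 plates, given as a description.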
